A study of Homo sapiens with 16 samples.

Results

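The UGT2B enzymes were followed here as 7 transcripts, chosen by gene symbol: UGT2B4, UGT2B7, UGT2B10, UGT2B11, UGT2B15, UGT2B17 and UGT2B28. All 7 were among the 60642 gene symbols in the table, and 5 of them reached 1 TPM in at least 2 libraries and were tested, with 16636 genes tested in all. Gene expression was measured by RNA-seq in LNCaP, an androgen-responsive human prostate cancer cell line kept as 1 clone, FGC. Every culture was first grown for 72 h in standard medium with 5% fetal bovine serum. It was next moved into medium with 5% charcoal-stripped serum, from which steroids are largely removed, for 48 h before treatment. The cells then received for 48 h either 10 nM dihydrotestosterone (DHT) or its solvent ethanol, combined with DMSO or with 10 µM of an androgen receptor antagonist: bicalutamide (BIC), enzalutamide (ENZ) or apalutamide (APA, abbreviated ARN in the sample labels). The 8 groups of 2 replicates, which the labels call biological, are named VEH (both solvents), DHT, BIC.VEH, ENZ.VEH and APA.VEH (antagonist without the androgen) and BIC.DHT, ENZ.DHT and APA.DHT (antagonist plus the androgen).

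UGT2B enzymes sit in the membrane of the endoplasmic reticulum and transfer glucuronic acid from UDP-glucuronic acid to small lipophilic molecules, which makes them water soluble and ready for export. In the prostate, UGT2B15 and UGT2B17 are the enzymes best known for conjugating DHT and its reduced metabolites androsterone and androstanediol, and a glucuronidated androgen no longer activates the androgen receptor. UGT2B28 can also act on androgens, UGT2B7 conjugates many drugs and steroids, UGT2B4 bile acids and UGT2B10 amines such as nicotine, while UGT2B11 has few known substrates.

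In short, DHT lowered the transcript of UGT2B17 and raised that of UGT2B28, and each antagonist given with DHT brought both back towards VEH. UGT2B17 averaged 308 TPM in VEH and 31.8 TPM with DHT, a 9.68-fold lower mean, and UGT2B28 averaged 0.45 and 6.62 TPM, a 14.7-fold higher mean (n = 2 each). The UGT2B28 ratio rests on low VEH values and was 7.98-fold without VEH replicate 1, 94.6-fold without VEH replicate 2 and 9.36-fold without DHT replicate 2, whereas the UGT2B17 ratio ran from 8.02 to 12.2 with any 1 of the 4 libraries left out. UGT2B15 followed UGT2B17 and UGT2B11 followed UGT2B28 in direction, but their replicates lay so far apart that the test passed them only once the replicate number was taken into account.

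The 7 genes lie within 0.99 Mb of chromosome 4 in GRCh38.p14 (RefSeq), in the order UGT2B17 (chr4:68537173-68576322), UGT2B15 (chr4:68646597-68670652), UGT2B10 (chr4:68815994-68832023), UGT2B7 (chr4:69051375-69112987), UGT2B11 (chr4:69199951-69224984), UGT2B28 (chr4:69280475-69295050) and UGT2B4 (chr4:69480165-69526014). The members at one end, UGT2B17 and UGT2B15, had lower means with DHT, and UGT2B11 and UGT2B28, further along, had higher means. The remaining members do not settle whether the order sorts by direction. Between these pairs, the mean of UGT2B10 was 1.17-fold higher with DHT, but its ratio was 0.787 without DHT replicate 2. That of UGT2B7 was 2.44-fold lower and, at the other end, that of UGT2B4 was 2.04-fold higher. UGT2B7 and UGT2B4 stayed below 1 TPM in every library and were not tested. The UGT2B7 values with DHT lay within the range of the other libraries. RefSeq places 30 other genes between the outer members, 6 of which were in the table and 0 reached the filter, the highest value being 0.18 TPM for the pseudogene UGT2B27P. RefSeq also annotates genes that overlap UGT2B4 (a pseudogene), UGT2B7 (a long non-coding RNA) and UGT2B11 (both kinds), and 0 overlapping UGT2B17, UGT2B15, UGT2B10 or UGT2B28. Within 1 Mb on either side, 6 of 42 genes in the table were tested. For DHT against VEH limma, described further on, called 0 of these 6, beside 10.3% of all genes tested. With the replicate number in the fit it called 2 higher, beside 27.4% of all genes: the pseudogene MT2P1 and the protease gene TMPRSS11E. MT2P1 read 0 TPM in both VEH libraries and 2.39 and 2.28 TPM with DHT.

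The members are close copies of each other, and the coding sequences show how close. By GENCODE transcripts, the coding sequence of UGT2B17 (1593 bases) differed from that of UGT2B15 at 55 positions (96.5% identical), and that of UGT2B11 (1590 bases) from that of UGT2B28 at 47 positions (97.0%), whereas UGT2B17 and UGT2B28 were 84.4% identical. Reads were 125 bases long. Of all stretches of that length in the transcripts, 7.17% of those in UGT2B17 also occurred in UGT2B15, 8.41% of those in UGT2B15 occurred in UGT2B17, and 0% of those in UGT2B28 occurred in another member. Likewise, 0.949% of those in UGT2B10 occurred in UGT2B11 and 1.26% of those in UGT2B11 occurred in UGT2B10. How the authors' software divided such reads between UGT2B15 and UGT2B17, or between UGT2B10 and UGT2B11, cannot be seen in TPM. The following 60 coding bases, where UGT2B17 and UGT2B15 differ most, are shown because such positions are what separates their reads; capitals mark the 9 bases that differ (bases 242 to 301 of the coding sequence).
UGT2B17: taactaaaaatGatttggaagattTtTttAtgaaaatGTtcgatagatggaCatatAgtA
UGT2B15: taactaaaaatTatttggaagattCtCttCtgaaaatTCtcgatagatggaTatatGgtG

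UGT2B11 and UGT2B28 are shown in the same way over coding bases 34 to 93, where 5 bases differ.
UGT2B11: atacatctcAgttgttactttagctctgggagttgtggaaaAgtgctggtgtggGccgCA
UGT2B28: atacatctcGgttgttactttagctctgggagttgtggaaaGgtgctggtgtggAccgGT

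Because UGT2B15 and UGT2B11 had differences of opposite sign with DHT, promoters are printed for the 4 of 7 members matched in the RefSeq table, which leaves out UGT2B17, UGT2B28 and UGT2B4. Each run is the 250 bases before the 1 start per gene that the table gives, 5′ to 3′ on the gene's own strand, in GRCh38.p14. For UGT2B15 and UGT2B10 that start is the edge of the gene as placed above, whereas for UGT2B11 and UGT2B7 it lies inside the gene, whose annotated span reaches further upstream. Capitals mark every match, on either strand, to the letters AGAACA (the core of the DNA element bound by the androgen receptor), to the forkhead elements TGTTTAC, or TGTTTGC, or else TATTTAC, or to GTTAAT (part of the HNF1 element). UGT2B15 lies at chr4:68670653-68670902 on the minus strand, UGT2B11 at chr4:69214749-69214998 on the minus strand, UGT2B10 at chr4:68815744-68815993 on the plus strand and UGT2B7 at chr4:69096224-69096473 on the plus strand.
UGT2B15: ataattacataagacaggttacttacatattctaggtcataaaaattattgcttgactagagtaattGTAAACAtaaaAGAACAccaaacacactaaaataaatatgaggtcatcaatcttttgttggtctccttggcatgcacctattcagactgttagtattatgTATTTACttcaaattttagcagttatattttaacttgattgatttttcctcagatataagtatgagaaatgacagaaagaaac
UGT2B11: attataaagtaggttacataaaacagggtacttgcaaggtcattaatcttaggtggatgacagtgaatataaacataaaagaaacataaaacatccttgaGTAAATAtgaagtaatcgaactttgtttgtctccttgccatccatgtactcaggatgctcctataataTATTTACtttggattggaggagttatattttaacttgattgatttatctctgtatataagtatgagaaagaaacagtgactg
UGT2B10: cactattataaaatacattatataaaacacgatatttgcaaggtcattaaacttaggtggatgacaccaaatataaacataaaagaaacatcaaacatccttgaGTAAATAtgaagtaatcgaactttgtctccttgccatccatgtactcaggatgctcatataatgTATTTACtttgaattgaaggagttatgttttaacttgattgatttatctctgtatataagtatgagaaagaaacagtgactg
UGT2B7: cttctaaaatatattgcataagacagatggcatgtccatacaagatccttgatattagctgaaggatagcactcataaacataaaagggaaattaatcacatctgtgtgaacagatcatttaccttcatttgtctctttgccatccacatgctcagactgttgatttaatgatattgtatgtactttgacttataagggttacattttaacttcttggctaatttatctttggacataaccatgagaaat

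UGT2B15 was the 1 promoter of 4 with AGAACA, at positions -172 to -167 from the start, and it also held TGTTTAC (read on the opposite strand) and 1 TATTTAC element. The promoters of UGT2B11 and UGT2B10, which were 93.1% identical, each held TATTTAC once on each strand. UGT2B7 held none of the searched letters. For comparison, AGAACA occurred in 12.4% of 35116 RefSeq promoters of this length. The forkhead element TGTTTAC occurred in 2.98% of them and its variant TATTTAC in 2.39% of all promoters searched. The other variant, TGTTTGC, occurred in 3.23% of them and the HNF1 letters GTTAAT in 6.23%, and the 4 promoters printed here held neither. The searched motifs did not overlap each other in these 4 promoters, and a match is a description of the letters alone.

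Before the members are compared, the libraries themselves need a word. The number of genes at 1 TPM or more ran from 14652 to 15360 per library, and read depth cannot be read from TPM. As a check of the DHT label, the androgen target KLK3, which encodes prostate-specific antigen, read 53.0 and 24.0 TPM in the VEH libraries against 4102 and 2422 TPM in the DHT libraries. All 10 luminal prostate markers examined passed the filter, and 5 were called higher with DHT by the test described further on (9 were called with the replicate number in the fit). Among markers of other cells, KRT5 and TP63 (basal cells), CHGA (neuroendocrine cells), COL1A2 and PECAM1 were at or near 0, none of them above 0.16 TPM. Other markers of the same lists were detected: KRT14 (basal) reached 1.68 TPM, SYP (neuroendocrine) 2.3 TPM, COL3A1 4.21 TPM and COL1A1 32.6 TPM. Replicate 2 differed from replicate 1 in a similar way in all groups, as described at the end.

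UGT2B17 was the most abundant member in all 16 libraries. In VEH it stood at 289 and 327 TPM (replicates 1 and 2), and with DHT at 25.2 and 38.4 TPM. In the antagonist groups without DHT it was at 246 and 322 TPM in BIC.VEH, 175 and 296 TPM in ENZ.VEH and 274 and 286 TPM in APA.VEH. With DHT added to an antagonist it was at 178 and 248 TPM in BIC.DHT, 164 and 314 TPM in ENZ.DHT and 187.5 and 302 TPM in APA.DHT. Both DHT libraries thus lay below all the other 14, of which the lowest was at 164 TPM.

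UGT2B15 came next. The VEH replicates held 114 and 193 TPM of it and the DHT replicates 15.7 and 34.3 TPM. The antagonist groups without DHT held 74.6 and 149.7 TPM (BIC.VEH), 50.3 and 182 TPM (ENZ.VEH) and 128 and 233 TPM (APA.VEH). With DHT they held 62.8 and 119 TPM (BIC.DHT), 40.2 and 170.4 TPM (ENZ.DHT) and 54.75 and 176 TPM (APA.DHT). Both DHT libraries were again the lowest, but ENZ.DHT replicate 1, at 40.2 TPM, came close to DHT replicate 2.

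UGT2B28 was nearly silent except with DHT. The VEH replicates held 0.07 and 0.83 TPM and the DHT replicates 4.21 and 9.04 TPM. The 12 antagonist libraries ranged from 0.21 TPM (ENZ.DHT and APA.DHT replicate 1) to 1.37 TPM (BIC.DHT replicate 2). It therefore reached 1 TPM in 5 libraries, 3 of them outside the DHT group, and both DHT libraries lay above all others.

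UGT2B11 showed the widest split between replicates. The VEH replicates held 3.79 and 14.7 TPM and the DHT replicates 12.5 and 36.7 TPM, so that the groups overlapped although DHT was higher within each replicate number. The antagonist groups had 2.74 and 13.2 TPM (BIC.VEH), 3.41 and 13.4 TPM (BIC.DHT), 1.16 and 11.4 TPM (ENZ.VEH), 1.17 and 10.7 TPM (ENZ.DHT), 2.44 and 13.98 TPM (APA.VEH) and 2.33 and 12.3 TPM (APA.DHT). In replicate 1 and in replicate 2 the DHT library was the highest of its 8.

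UGT2B10 varied between 1.23 and 6.91 TPM with little sign of the treatment. VEH held 2.48 and 6.42 TPM and DHT 3.5 and 6.91 TPM, and the groups overlapped. UGT2B4 and UGT2B7 stayed below 1 TPM in all 16 libraries and were not tested. UGT2B4 read 0.76 and 0.65 TPM with DHT, its 2 highest values, against 0.16 and 0.53 TPM in VEH. UGT2B7 read 0.17 and 0.19 TPM with DHT against 0.24 and 0.64 TPM in VEH, within a range of 0.08 to 0.65 TPM over all libraries.

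**Figure D1:**
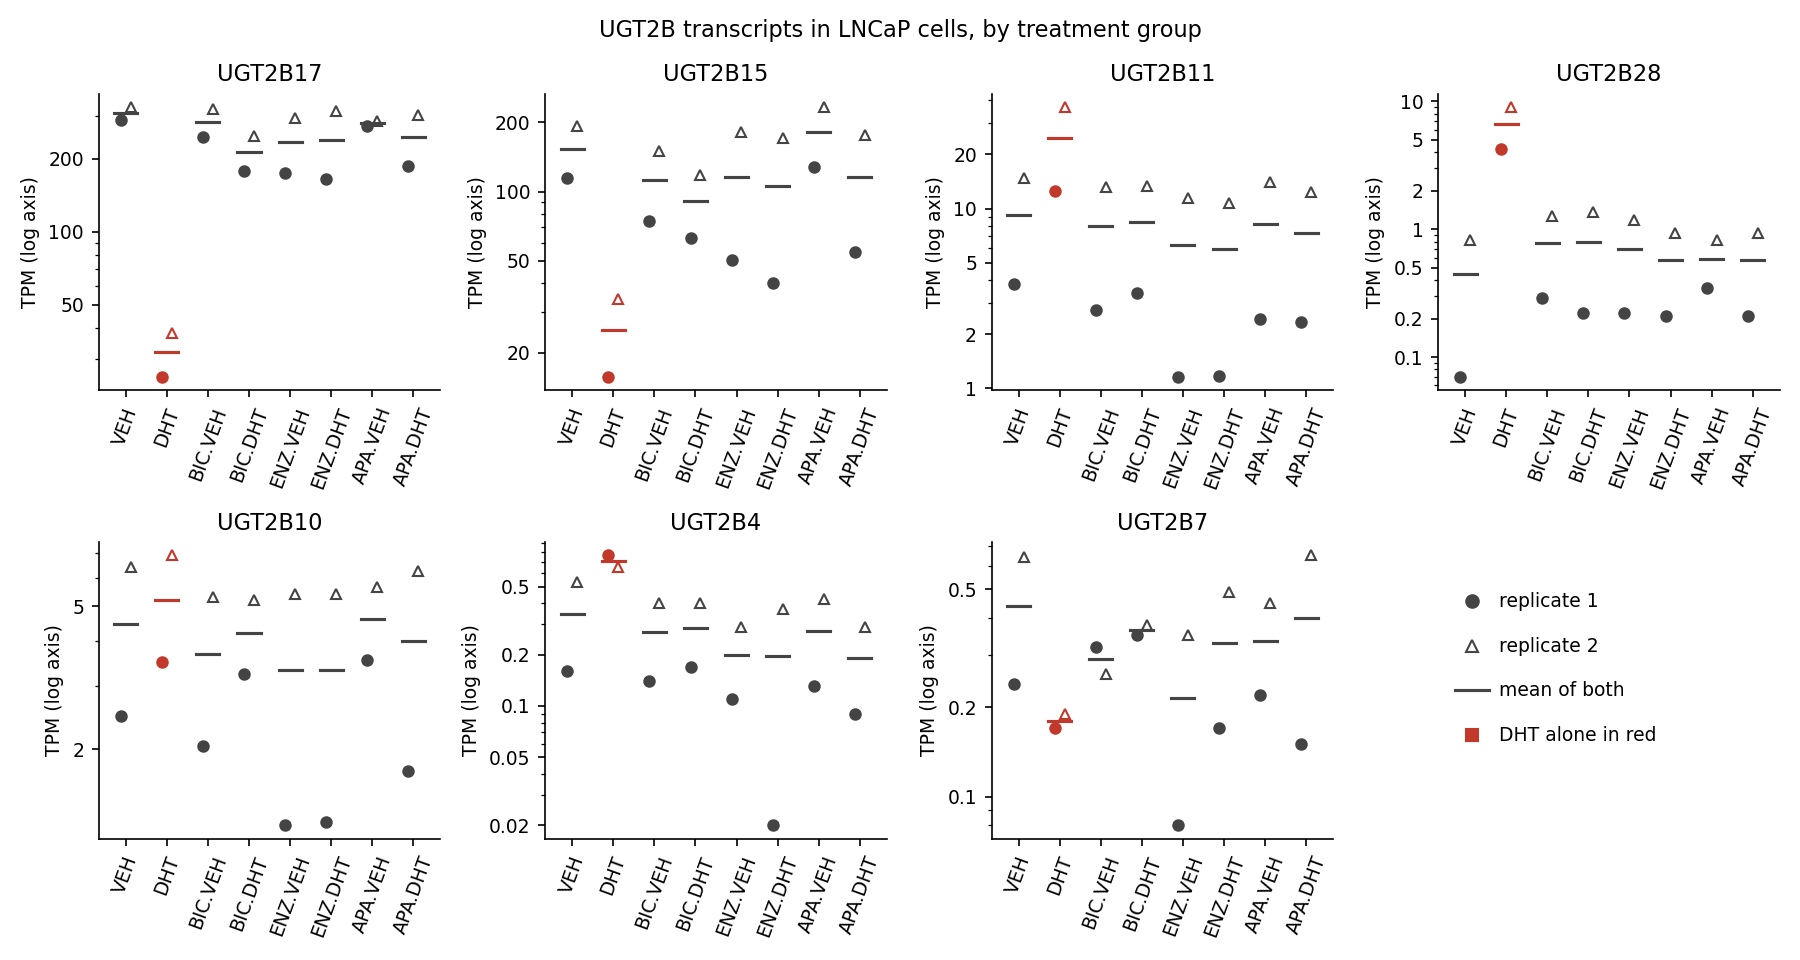
TPM (log axis, a scale of its own in each panel) of each UGT2B transcript in the 8 treatment groups; filled circles are replicate 1, open triangles replicate 2, the bar is their mean, and DHT alone is in red. UGT2B17 and UGT2B15 are lowest and UGT2B28 highest in the 2 DHT libraries, and replicate 2 lies above replicate 1 in all 8 groups for the 5 members above 1 TPM.

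TPM is scaled per transcript length, so levels can be set against each other between members. In VEH the order was UGT2B17, UGT2B15, then UGT2B11 and UGT2B10, whose replicates overlapped, and then UGT2B28, UGT2B7 and UGT2B4, which overlapped too. With DHT, UGT2B17, UGT2B15 and UGT2B11 overlapped at the top, UGT2B28 and UGT2B10 overlapped below them, and UGT2B4 and UGT2B7 stayed last. UGT2B17 exceeded UGT2B15 in every library, by a ratio of 1.12 and 1.61 with DHT and 1.23 to 4.08 elsewhere.

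Summed over the 7 members, the VEH libraries held 409.3 and 543 TPM and the DHT libraries 62.1 and 126 TPM. The other 14 libraries, VEH included, ran from 207 to 543 TPM with a median of 409 TPM, so both DHT libraries were below all of them. The make-up of the sum shifted as well. UGT2B15 and UGT2B17 together held 94.7% to 98.8% of it outside the DHT group, and 65.9% and 57.6% with DHT. UGT2B11 and UGT2B28 together held 0.606% to 3.81% outside the DHT group and 26.9% and 36.2% with DHT. The share of UGT2B11 alone was 20.1% and 29.1% with DHT against 0.926% and 2.71% in VEH, and that of UGT2B28 was 6.78% and 7.17% against 0.0171% and 0.153%. These shares are descriptions, and the sum is of transcripts, not of enzyme activity.

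**Figure D2:**
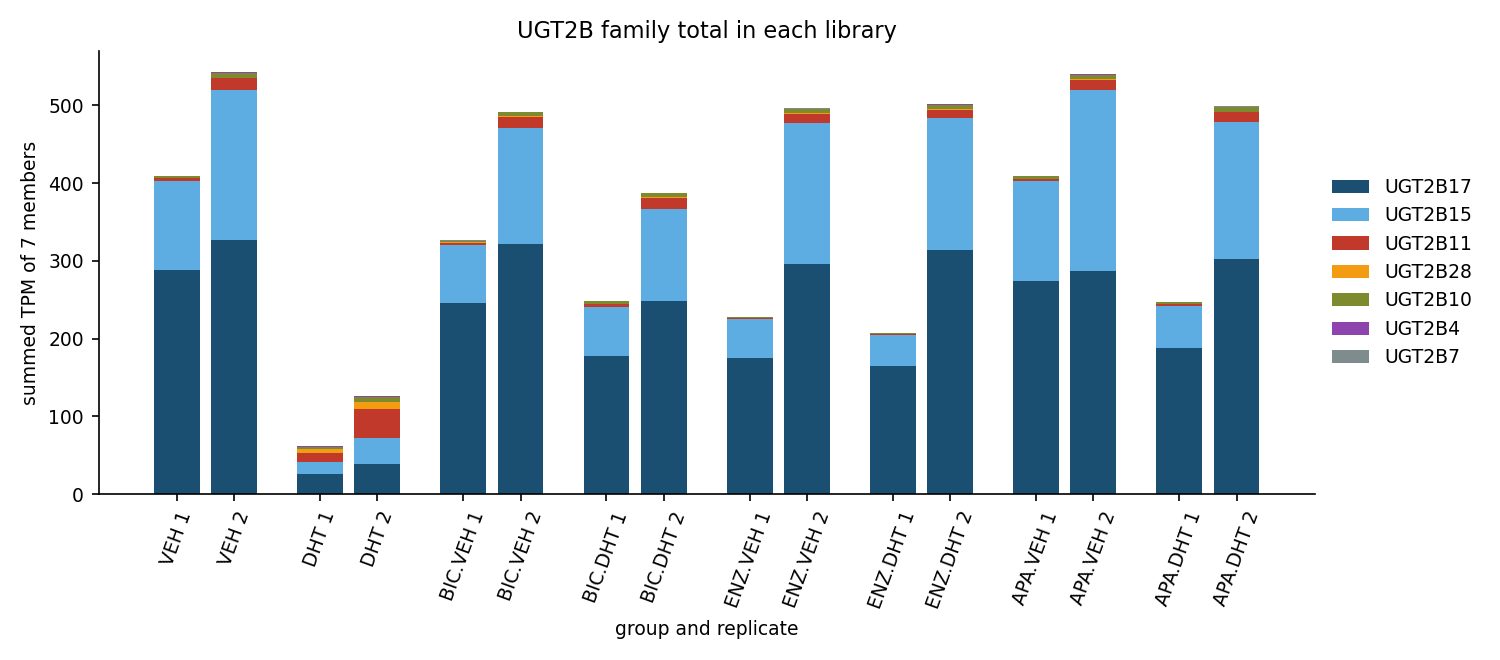
Summed TPM of the 7 UGT2B members in each of the 16 libraries, stacked by member, with the axis starting at 0. The DHT libraries reach 62.1 and 126 TPM and carry a visible UGT2B11 and UGT2B28 part, whereas UGT2B17 and UGT2B15 fill nearly all of the other bars, which end between 207 and 543 TPM.

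The androgen response was tested as DHT minus VEH with limma on log2(TPM + 1), in 1 fit of all libraries, and a gene was called where its p-value, adjusted by Benjamini-Hochberg over all genes tested, was below 0.05. On this scale a difference understates the change of genes near or below 1 TPM, such as UGT2B28. Of the 5 members tested, 2 were called, 1 in each direction, and 10.3% of all genes tested were called. UGT2B17 fell by 3.26 (SE 0.36, limma adjusted p = 0.000299) and ranked as the 8th lowest difference of 16636. UGT2B28 rose by 2.37 (SE 0.49, limma adjusted p = 0.0108) and ranked as the 68th highest. Both DHT libraries lay outside the range of the other 14 for 3 of the 5 members (UGT2B17, UGT2B15 and UGT2B28), as they did for 24.5% of all genes tested.

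UGT2B15 differed by -2.62 (SE 0.81), the 23rd lowest difference, but was not called (limma adjusted p = 0.0669). UGT2B11 differed by 1.38 (SE 1.21, limma adjusted p = 0.522) and UGT2B10 by 0.23 (SE 0.68, limma adjusted p = 0.878). The UGT2B11 difference was 0.52 without VEH replicate 1 and 0.64 without DHT replicate 2, and 2.24 and 2.12 without the other replicate of VEH and DHT. The libraries of 1 replicate number deviated together, so the fit was repeated with the replicate number as a block. In that fit 4 of the 5 members were called, beside 27.4% of all genes: UGT2B17 (adjusted p = 1.06e-06), UGT2B28 (5.7e-06), UGT2B15 (0.000133) and UGT2B11 (0.00134), whose differences kept their size, and not UGT2B10 (0.533). When the 4 VEH and DHT libraries were fitted alone, the UGT2B28 call was lost (limma adjusted p = 0.0817), as it was without VEH replicate 1 or without DHT replicate 2 (0.108 each). The UGT2B17 call held under every alternative run, each library left out included. The median difference over the 5 members was 0.23, against -0.098 over all genes tested.

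The question of whether an antagonist opposed DHT was addressed by each antagonist with DHT minus DHT alone. These 3 comparisons share the DHT libraries. UGT2B17 was higher with each antagonist and UGT2B28 lower, so that 2 of 5 members were called in each comparison, against 3.13% of all genes with BIC, 9.65% with ENZ and 8.36% with APA. UGT2B17 rose by 2.72 under BIC (limma adjusted p = 0.00244), by 2.83 under ENZ (0.000823) and by 2.90 under APA (0.000721), each with an SE of 0.36. In mean TPM these were 6.7-fold, 7.51-fold and 7.7-fold higher than DHT alone. UGT2B28 fell by 2.09 under BIC (limma adjusted p = 0.045), by 2.24 under ENZ (0.0166) and by 2.24 under APA (0.0175), each with an SE of 0.49. All 3 UGT2B28 calls were lost with a pseudocount of 0.1 TPM, where its adjusted p was 0.176, 0.0773 and 0.0817, with only the 4 libraries compared (0.206, 0.15 and 0.181) and without DHT replicate 2 (0.319, 0.138 and 0.148) or the antagonist's replicate 1 (0.317, 0.13 and 0.112). The call under BIC was also lost without any other library and with no filter (0.0875). The UGT2B17 calls were lost in the fits of 4 libraries (adjusted p = 0.116, 0.0976 and 0.105).

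UGT2B15 had higher means and UGT2B11 lower means with each antagonist, but neither passed the test. In the order BIC, ENZ, APA, UGT2B15 differed by 1.85, 1.79 and 2.03 (SE 0.81, limma adjusted p = 0.313, 0.189 and 0.152). UGT2B11 differed by -1.50, -2.16 and -1.76 (SE 1.21, limma adjusted p = 0.642, 0.282 and 0.396). Single libraries moved these values by over 1.5 times, except for UGT2B15 under BIC, which ranged from 1.31 to 2.39. With 1 of the 4 libraries left out, UGT2B11 ranged from -2.35 to -0.65, from -3.38 to -0.95 and from -2.76 to -0.76, the values nearest 0 being those without replicate 1 of the antagonist, and those without DHT replicate 2 also being smaller than with all libraries. UGT2B15 went as low as 0.76 without ENZ.DHT replicate 2 and 1.20 without APA.DHT replicate 2, and as high as 2.82 and 2.87 without replicate 1 of these groups. With the replicate block both were called in all 3 comparisons, UGT2B15 with adjusted p = 0.00275, 0.00138 and 0.000682 and UGT2B11 with 0.00197, 9.21e-05 and 0.000351, so that 4 of 5 members passed, beside 13.3%, 29.2% and 27.3% of all genes. UGT2B10 differed by -0.22, -0.65 and -0.42 and was called in neither fit.

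**Figure D3:**
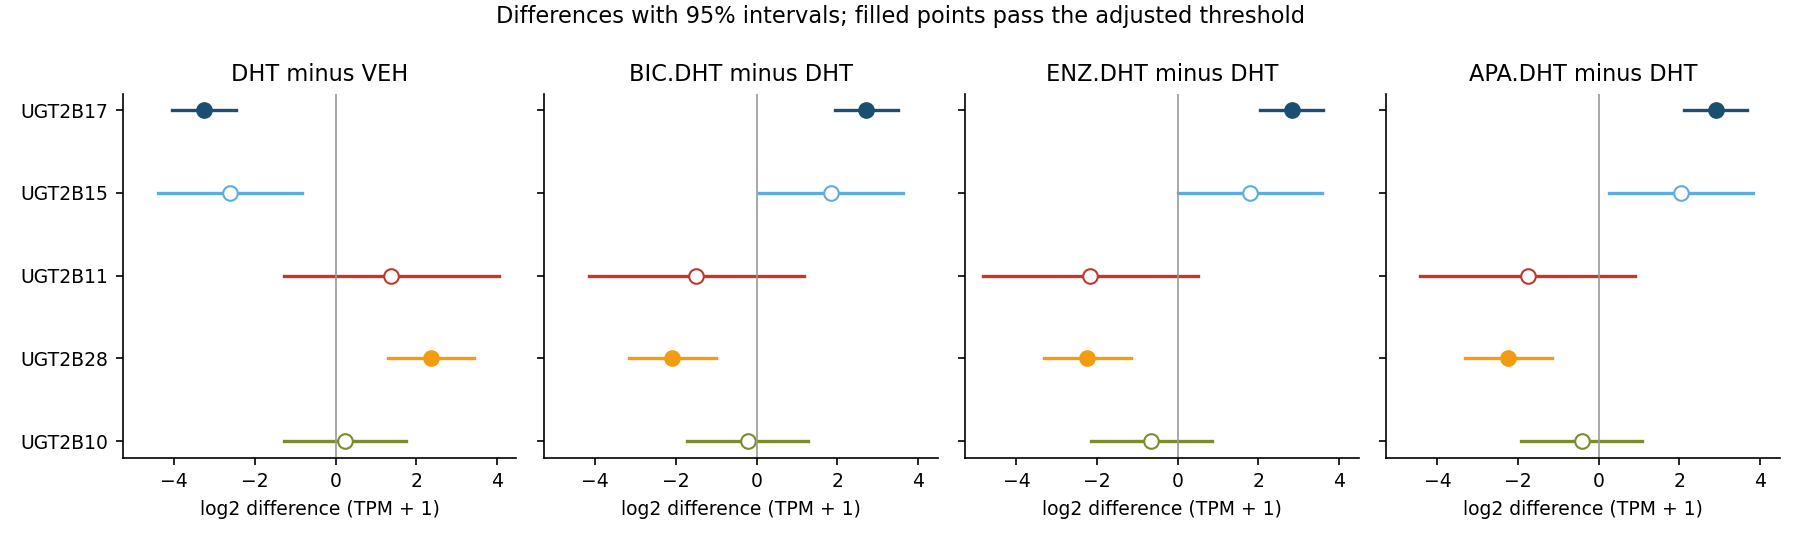
Differences in log2(TPM + 1) of the 5 tested members, with 95% intervals from the fit without a replicate block, for DHT minus VEH and for each antagonist with DHT minus DHT; filled points have an adjusted p below 0.05. UGT2B17 (-3.26) and UGT2B28 (2.37) are filled and opposite in sign with DHT, and both change sign under each antagonist, while the UGT2B11 intervals (SE 1.21) are the widest.

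How far an antagonist returned a member towards VEH was expressed as a position between DHT (0%) and VEH (100%), within each replicate number and on the log2 scale. UGT2B17 was at 80.0% and 87.1% (BIC), 76.7% and 98.0% (ENZ) and 82.1% and 96.3% (APA). UGT2B28 was at 91.7% and 84.8% (BIC), 92.2% and 96.6% (ENZ) and 92.2% and 96.9% (APA). UGT2B15 was at 69.5% and 71.6% (BIC), 46.8% and 92.8% (ENZ) and 62.5% and 94.7% (APA). The UGT2B11 positions were 108% and 110% (BIC), 176% and 134% (ENZ) and 135% and 119% (APA), which is past VEH in all 6 values. On linear TPM, UGT2B15 replicate 1 lay over 1.5 times lower, at 24.95% (ENZ) and 39.7% (APA). The antagonists' values overlapped for UGT2B17 and UGT2B15, and no test was made of positions.

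Whether the response to DHT itself differed with an antagonist present was tested as the interaction, in which DHT minus VEH is subtracted from the same difference under the antagonist. For UGT2B17 it was 2.84 with BIC (limma adjusted p = 0.0259), 3.26 with ENZ (0.00849) and 3.03 with APA (0.0145), each with an SE of 0.50. UGT2B17 was the 1 member of 5 called in each, against 0.986%, 1.63% and 1.42% of all genes. The UGT2B28 interactions of -2.38, -2.46 and -2.41 (SE 0.69 each) did not pass (limma adjusted p = 0.167, 0.123 and 0.138). With the replicate block 4 members passed in each, beside 6.39%, 9.91% and 10.1% of all genes, with adjusted p of 0.000267, 0.000174 and 0.00022 for UGT2B28, 0.00886, 0.00553 and 0.0219 for UGT2B15 and 0.0451, 0.0196 and 0.0165 for UGT2B11. The UGT2B17 interaction with BIC was lost without any 1 of the 8 libraries involved other than DHT replicate 2 (2.55 to 3.14, limma adjusted p = 0.0658 to 0.117 where lost) and with no filter (0.0526). That with APA was lost without either VEH library, either APA.VEH library or DHT replicate 1 (0.0531 to 0.0667), and that with ENZ when only the groups compared were fitted (0.0808).

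Within each antagonist, DHT changed no member past the test: 0 of 15 member comparisons were called in either fit. The share of all genes called was 0% with BIC and 0.00601% each with ENZ and APA, or 0%, 0.00601% and 0.024% with the block. At an unadjusted p below 0.05 there were 0 of 15, or 2 with the block. The differences ran from -0.81 to 0.23. For UGT2B17 they were -0.42 with BIC (95% interval -1.20 to 0.36), -0.0019 with ENZ (-0.78 to 0.78) and -0.23 with APA (-1.02 to 0.55). None of these 3 intervals reached the -3.26 measured without an antagonist.

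Without DHT, the antagonists were compared with VEH to ask whether they acted on these transcripts by themselves. Again 0 of 15 member comparisons were called in either fit. Of all genes, 0% were called with BIC, 0% with ENZ and 0.00601% with APA, or 0.018%, 0% and 0.012% with the block. UGT2B17 differed by -0.13 with BIC, -0.43 with ENZ and -0.13 with APA, and all members together ranged from -0.74 (UGT2B11 with ENZ) to 0.29 (UGT2B28 with BIC). At an unadjusted p below 0.05 limma counted 0 of the 15, or 2 with the block.

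The 3 antagonists were set against each other at the same dose and time, over 15 member differences with DHT and 15 without. ENZ and APA share a diaryl thiohydantoin core and differ in that APA carries a spirocyclic ring in place of the dimethyl group of ENZ and a pyridine in place of a benzene ring, whereas BIC is an anilide without that core. With DHT, 0 of 15 differences were called, against 0.00601% of all genes for ENZ minus BIC, 0% for APA minus BIC and 0.00601% for APA minus ENZ. UGT2B17 differed by 0.11 for ENZ minus BIC (95% interval -0.67 to 0.89), 0.18 for APA minus BIC (-0.60 to 0.96) and 0.07 for APA minus ENZ (-0.71 to 0.85). For UGT2B28 the 3 differences lay between -0.15 and -0.0037, and the widest intervals were those of UGT2B11, which reached from -3.33 to 3.06. Without DHT, 0 of 15 were called, against 0%, 0.012% and 0.00601% of all genes in the same order, with differences from -0.49 to 0.84. The block called 0 in both sets too, beside 0.012%, 0.0541% and 0.00601% of all genes with DHT and 0.00601%, 0.0842% and 0.00601% without it, and an unadjusted p below 0.05 was reached by 0 of 15 in each set, or by 1 with DHT and 2 without it in the blocked fit. The intervals show how large a difference between the compounds would have been missed, and do not show that the compounds acted alike.

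The genes around glucuronidation were read in the same fit, list by list, to place the members in their pathway. DHT is reduced to androstanediol by aldo-keto reductases before or instead of being conjugated. Of 10 genes of DHT reduction and back-oxidation, 7 were tested and 1 was called for DHT minus VEH (3 at an unadjusted p below 0.05): AKR1C3, which reduces DHT and other steroids. The block called 3 of the 7, AKR1C3 and the related reductase AKR1C1 lower (-1.46 for AKR1C1, adjusted p = 0.0381) and HSD17B6, which oxidises androstanediol back to DHT, higher (0.64, adjusted p = 0.0325). AKR1C3 held 8.32 and 8.13 TPM in VEH against 1.58 and 1.24 TPM with DHT, a difference of -1.94 (SE 0.38, limma adjusted p = 0.00816), and was called higher again with ENZ (2.06) and APA (1.92) but with BIC only in the blocked fit (1.46, limma adjusted p = 0.0658, or 0.00233 with the block). The AKR1C3 call for DHT was lost without VEH replicate 1 (0.0592) or DHT replicate 2 (0.0673), and the gene has close copies among which reads may be shared. Of 6 genes that make or use UDP-glucuronic acid, the sugar donor, 5 were tested and 0 were called (2 at an unadjusted p below 0.05), while the block called 2 higher. One of these was UGDH, the enzyme that makes the donor, at 41.1 and 41.4 TPM in VEH against 67.7 and 59.9 TPM with DHT, a difference of 0.62 (limma adjusted p = 0.096, or 0.0499 with the block).

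Export of conjugates depends on ATP-driven pumps, of which 3 of 5 listed genes were tested and 1 was called in each direction. ABCC4, a pump of organic anions that include steroid conjugates, rose from 35.4 and 32.7 TPM in VEH to 100.4 and 114 TPM with DHT, a difference of 1.62 (SE 0.16, limma adjusted p = 0.000158), and each antagonist with DHT lowered it again, by differences of -1.39 (BIC), -1.89 (ENZ) and -1.77 (APA), all called. ABCG2, another such pump, held 1.51 and 1.43 TPM in VEH against 0.23 and 0.13 TPM with DHT (difference -1.07, limma adjusted p = 0.00372, or 0.056 with only these groups fitted). Of 12 UGT1A, UGT3A and UGT8 genes 4 were tested and 0 called (1 at an unadjusted p below 0.05), the largest difference being that of UGT1A1, which conjugates bilirubin, at 1.17 and 0.55 TPM in VEH against 4.23 and 1.82 TPM with DHT (1.07, limma adjusted p = 0.0928, or 0.00212 with the block). UGT1A transcripts share most of their exons, so their separate levels are uncertain. Sulfation, the other main conjugation of steroids, had 4 of 9 genes tested and 0 called (0 at an unadjusted p below 0.05, and 1 called lower with the block). Of GUSB and STS, which remove glucuronide and sulfate, 0 were called in either fit and 0 had an unadjusted p below 0.05. Of 12 regulators of UGT2B transcription 5 were tested and 0 called (3 at an unadjusted p below 0.05), and the block called 4 of them lower. The UGT2A enzymes and the UGT2B pseudogenes stayed at or below 0.39 TPM.

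**Figure D4:**
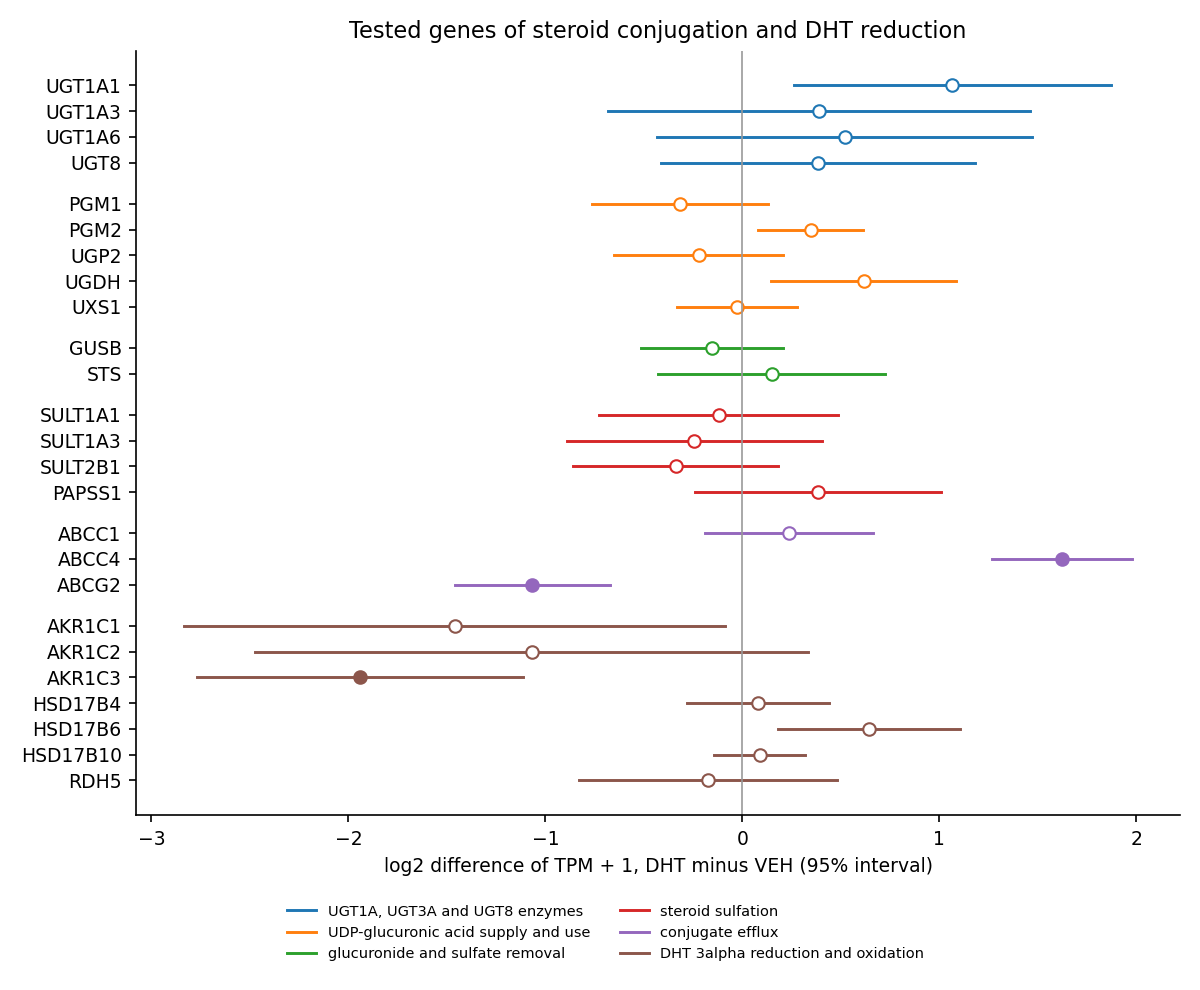
Differences in log2(TPM + 1) for DHT minus VEH, with 95% intervals, of the tested genes of steroid conjugation and of DHT reduction; filled points have an adjusted p below 0.05. ABCC4 (1.62) lies to the right and ABCG2 (-1.07) and AKR1C3 (-1.94) to the left, and the other genes, UGDH (0.62) and UGT1A1 (1.07) among them, have open points.

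Markers of other cell types were read beside these results. Of 6 stromal, endothelial and leukocyte markers, 2 passed the filter and 1, COL1A1, was called lower with DHT, at 32.6 and 25.9 TPM in VEH against 11.4 and 15.6 TPM with DHT (limma adjusted p = 0.00357, or 0.0861 with only these groups fitted). With the block COL3A1 was called lower as well (-0.84, adjusted p = 0.00163), so that both tested markers were lower with DHT. The list summed to 29.5 to 34.6 TPM in VEH, 12.3 to 16.9 TPM with DHT and 20.6 to 32.0 TPM in the antagonist groups, while COL1A2 and PECAM1 were at or near 0 throughout. Of 3 basal markers 1 passed, KRT14, at 0.03 and 0.05 TPM in VEH against 1.68 and 1.59 TPM with DHT, where it was called higher, with KRT5 and TP63 near 0. KRT14 was at most 0.68 TPM in the other libraries and so passed the filter only through the group in which it was then called. Of 4 hepatocyte markers, a cell type rich in UGT2B transcripts, 2 passed and 0 were called in either fit (1 at an unadjusted p below 0.05), and the list summed to 4.89 to 5.53 TPM in VEH and 5.83 to 8.78 TPM with DHT. Of 2 neuroendocrine markers 1 passed and was not called, at a difference of 0.21. The part of these markers in the UGT2B results was not tested. In bulk RNA, fewer cells with a transcript and less of it per cell cannot be told apart.

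For each tested member, the 3 genes with the most similar profile over the 16 libraries were taken from 11061 genes with a mean of at least 5 TPM, by Pearson correlation of log2(TPM + 1). They were BCHE (r = 0.991), NIPSNAP3A (0.988) and CCDC80 (0.983) for UGT2B17, and RBM4 (0.993), CITED2 (0.969) and SALL2 (0.966) for UGT2B15. For UGT2B28 they were SLC43A1 (0.973), SH3BGRL (0.970) and PSMD14 (0.969), for UGT2B11 EIF3M (0.984), SKA3 (0.976) and SMC4 (0.974), and for UGT2B10 CCT3 (0.968), YBX1 (0.959) and CCT2 (0.955). BCHE fell from a mean of 97.7 TPM in VEH to 11.6 TPM with DHT, as UGT2B17 did, whereas the genes most like UGT2B10 hardly differed between VEH and DHT. Among the members, r was 0.872 between UGT2B15 and UGT2B17, 0.800 between UGT2B11 and UGT2B28, 0.920 between UGT2B10 and UGT2B11 and -0.720 between UGT2B17 and UGT2B28. By ranks (Spearman's rho) these pairs gave 0.891, 0.751, 0.865 and 0.085, so the negative value for UGT2B17 and UGT2B28 did not hold by rank. The 16 points share 8 treatments and a difference between replicate numbers, so these values describe the libraries only.

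That difference between replicates was large for this family. Replicate 2 was higher than replicate 1 in 8 of 8 groups for all 5 tested members. The ratio of replicate 2 to replicate 1 ran from 1.05 to 1.91 for UGT2B17 and from 1.69 to 4.24 for UGT2B15. It ran from 2.93 to 9.86 for UGT2B11, from 2.15 to 11.9 for UGT2B28 and from 1.59 to 4.398 for UGT2B10. In the fit with the replicate block, which gives replicate 2 minus replicate 1 over all groups, UGT2B11 differed by 1.99 (SE 0.11, limma adjusted p = 3.09e-06), the 26th highest of 16636, and UGT2B15 by 1.27 (SE 0.15, limma adjusted p = 0.000102). UGT2B10 differed by 1.06, UGT2B28 by 0.76 and UGT2B17 by 0.51, and 5 of 5 members were called where 40.2% of all genes were. This comparison was chosen after the values were seen. In UGT2B11 the gap between replicates exceeded the mean difference of 1.38 between DHT and VEH, and in UGT2B17 it was well below the 3.26 by which DHT lowered it. Beyond the label of biological replicates and an RNA number in the sample titles, what separates them is not given in the sources used here.

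**Figure D5:**
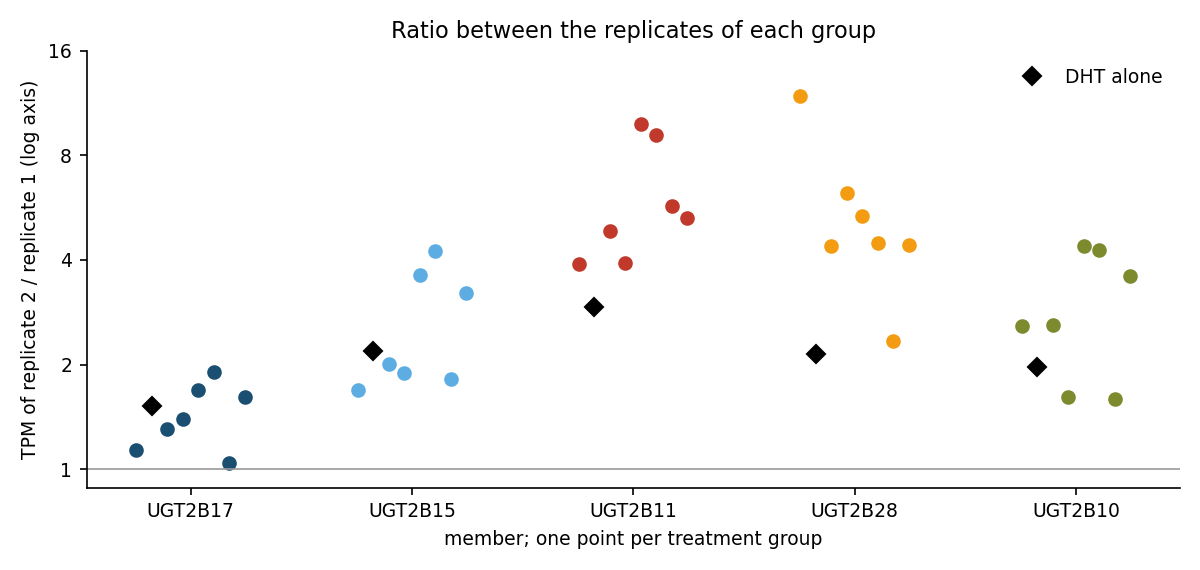
Ratio of TPM in replicate 2 to TPM in replicate 1 (log axis) for each tested member, 1 point per treatment group, with DHT alone as a black diamond; the line marks equal replicates. All 40 points lie above 1, from 1.05 to 1.91 for UGT2B17 up to 2.15 to 11.9 for UGT2B28.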

How the data were processed

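RNA was taken from LNCaP cells in 8 groups of 2 replicates, and stranded polyA libraries were sequenced as paired 125 bp reads, about 40 M pairs each. The authors aligned reads to GRCh38 and estimated levels with RSEM; the submitters' processing notes name FastQC 0.11.9, Trim Galore 0.6.5, STAR 2.7.2b and RSEM 1.3.3. The deposited values are TPM per gene symbol, which the authors scaled per length and library, so that depth is unknown and precision rests on the replicates. Column totals were 976190 to 983114. RSEM divides reads shared by close copies among them.

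Genes at 1 TPM or more in at least 2 libraries were tested with limma 3.58.1 (R 4.3.3, trend option) on log2(TPM + 1), with 8 group means over 16 libraries, 19 contrasts and Benjamini-Hochberg adjustment over all genes tested. The fit was tested on simulated data with independent noise in each library. That simulation held no difference between replicate numbers, so it does not cover the pairing described next. Replicate numbers were taken to pair libraries: deviations of the replicates correlated above 0.1 in 28 of 28 pairs of groups (0.204 to 0.635). In the sample titles, all libraries of 1 replicate number also share an RNA number, some with a letter added. The labels call the replicates biological but do not say what separated them (culture, passage or day), and p-values measure the spread between these libraries. Alternatives were another pseudocount (0.1 TPM), other filters, median-ratio scaling, the replicate block, fits of only the groups compared, no trend, and each library left out; leaving libraries out of the ratios of mean TPM was added after the values were seen. Named genes are the 7 members, 15 lists, the 3 genes most like each member and the neighbours within 1 Mb. Members and lists were chosen with earlier results of these data known. Sequences came from RefSeq (promoters of GRCh38.p14) and GENCODE transcripts. Identity was computed with Biopython 1.88.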

Additional observations from a re-analysis of the deposited data

Results flagged for a closer look

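The response of UGT2B17 to DHT differed between cells without and with an antagonist, by the test of the interaction itself: by 2.84 with BIC, 3.26 with ENZ and 3.03 with APA on the log2 scale (limma adjusted p = 0.0259, 0.00849 and 0.0145). UGT2B17 was lower with DHT than with VEH in 2 of 2 replicate numbers without an antagonist. With BIC it was lower with DHT in both as well (246 to 178 TPM and 322 to 248 TPM). With ENZ and with APA it was lower in replicate 1 and higher in replicate 2. As given above, the calls with BIC and APA were lost without some single libraries, and that with ENZ when only the groups compared were fitted. The 3 values share the DHT and VEH libraries.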

How the results depend on the processing

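With the replicate number as a block (the paired fit), 4 of 5 members were called instead of 2 for DHT minus VEH and for BIC.DHT, ENZ.DHT and APA.DHT minus DHT, and 4 instead of 1 for each of the 3 interactions; 0 other counts of members changed with the block. When only the groups compared were fitted, 1 member was called for DHT minus VEH, 0 for each antagonist with DHT minus DHT, and 0 for the ENZ interaction. With a filter at 5 TPM UGT2B28 was not tested, which left 1 member called in each of the first 4 comparisons. A pseudocount of 0.1 TPM left 1 called in each antagonist comparison with DHT. No filter left 1 for BIC.DHT minus DHT and 0 for the BIC interaction. Without the trend, and with median-ratio scaling, all 11 counts of members stayed within 1.5 times.

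Leaving out each library in turn gave 1 to 2 members called for DHT minus VEH (1 without VEH replicate 1 or DHT replicate 2) and 1 throughout for BIC.DHT minus DHT. It gave 1 to 2 for ENZ.DHT and for APA.DHT minus DHT (1 without DHT replicate 2 or the antagonist's replicate 1), and 0 to 1 for the BIC and APA interactions. A group left with 1 library was assumed to vary like the others.

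The direction of some uncalled differences turned. Median-ratio scaling gave 0.14 for UGT2B17 in ENZ.DHT minus ENZ.VEH, and a pseudocount of 0.1 gave 0.01 for the UGT2B10 interaction with BIC. On leaving out a library, UGT2B10 ranged from -0.31 to 0.78 for DHT minus VEH, from -0.63 to 0.19, -1.40 to 0.10 and -1.12 to 0.28 for BIC.DHT, ENZ.DHT and APA.DHT minus DHT, and from -0.55 to 0.54, -0.99 to 0.54 and -1.23 to 0.17 for the interactions in that order. UGT2B17 ranged from -0.32 to 0.07 for BIC.VEH minus VEH, from -0.47 to 0.46 for ENZ.DHT minus ENZ.VEH, from -0.58 to 0.11 for APA.DHT minus APA.VEH, and from -0.35 to 0.57, -0.16 to 0.52 and -0.40 to 0.53 for ENZ minus BIC, APA minus BIC and APA minus ENZ with DHT. The cause was not tested.

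Without UGT2B17 in the sum, the mean shares with DHT were 37.86% for UGT2B11, 10.86% for UGT2B28, 40.86% for UGT2B15 and 8.684% for UGT2B10, against 24.6%, 6.97%, 26.3% and 5.56% of the whole sum. On linear TPM the mean position of UGT2B17 was 65.4% with BIC and 76.54% with APA, that of UGT2B28 94.9% with BIC and 97.64% with ENZ, that of UGT2B15 50.52% with BIC, and that of UGT2B11 105.2%, 124.2% and 113.9% with BIC, ENZ and APA. Summed, UGT2B15 and UGT2B17 averaged 461.2 TPM in VEH and 56.81 TPM with DHT. By Spearman's rho, 1 of the 3 genes most like UGT2B17, UGT2B15 and UGT2B28 remained in each case, and 0 of those for UGT2B10 and UGT2B11. Over all genes, DHT minus VEH called 604 higher and 1105 lower, against 1046 and 860 with median-ratio scaling, which moved the median difference from -0.098 to 0.009, and 4559 in all with the block against 1709.

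TPM keeps no depth, so values of UGT2B4, UGT2B7 and, outside DHT, UGT2B28 below 1 TPM have no counting error attached. With 2 libraries a group, the UGT2B11 interval for DHT minus VEH ran from -1.29 to 4.04.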
